A study of Mus musculus with 12 samples.

Results

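The genes described here are 9 markers of T cells and intraepithelial lymphocytes: Cd3d, Cd3e, Cd3g and Cd247, which encode signalling chains of the T cell receptor complex, Cd8a and Cd8b1, the chains of the CD8 coreceptor, the granzyme genes Gzma and Gzmb, and Itgae, the integrin chain CD103. They were taken as every probe set annotated to exactly 1 of these symbols, which gave 13 of the 22626 probe sets tested and 9 of the 12393 genes with a symbol of their own. Cd247 had 4 probe sets, Cd8a had 2 and every other gene had 1. A gene with several probe sets is represented below by the one with the highest mean.

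Expression was measured in scrapings of ileal epithelium, from the distal end of the small intestine, in male C57BL/6 mice aged 6 to 8 weeks. Mice were wild type (WT) or POR-null, with a deletion of the gene for cytochrome P450 reductase. This enzyme passes electrons to microsomal P450 enzymes. The labels name neither the tissue of the deletion nor a promoter behind it, and the published study of these mice describes a deletion in the liver. All 4 groups were adapted for 14 days to the same soya-free powdered RM3 diet. They then received it alone (WT control and POR-null control) or mixed with quercetin, a plant flavonol, at 6.2 g per kg, listed as 7 mg per mouse (WT quercetin and POR-null quercetin), and were killed after 24 h. Each group had 3 Affymetrix arrays, and the RNA on an array came from a pool of 3 mice, so an array value averages those mice and the spread between arrays is a spread between pools.

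The epithelium of the small intestine holds a dense population of T cells lodged between the absorptive cells. The T cell receptor itself has no signalling tail, and the CD3 chains with CD247 carry its signal into the cell. Many intraepithelial lymphocytes carry CD8 as a pair of CD8α chains, whereas conventional CD8 T cells carry CD8α joined to CD8β, the product of Cd8b1. CD103 pairs with the integrin β7 chain and binds E-cadherin on epithelial cells, which holds lymphocytes in the layer, and granzymes are serine proteases of cytotoxic granules. A scraping can hold intraepithelial lymphocytes and also cells of the underlying lamina propria. In such bulk RNA, fewer cells of a type and less RNA per cell cannot be told apart.

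Values are log2 expression levels, so a step of 1 is a doubling. Array medians lay between 5.91 and 5.96, and the lowest correlation between any pair of arrays across probe sets was 0.99. On the first principal component, with 19.7% of the variance, WT control replicate 2 lay at -25.6, against -10.8 to 10.6 for the other 11 arrays. Epithelial genes were among the bright signals, as the tissue label has it. Epcam, an epithelial adhesion molecule, lay between 12.41 and 12.76 over all 12 arrays, the villus gene Vil1 between 12.11 and 12.32, and Fabp6, the bile acid binding protein of the ileum, between 12.05 and 12.76. Slc10a2, the ileal bile acid transporter, varied more, from 5.22 to 7.52. Por is not analysed here, so the genotype labels were not checked against the targeted gene. The number of arrays limits the precision throughout, and no detection call was used for a dim probe set.

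The chains that assemble with the T cell receptor did not behave alike across the pools. Cd3g, the CD3γ chain, was at 6.52, 6.10 and 6.48 in WT control and at 7.15, 7.10 and 6.70 in POR-null control. All 3 POR-null control pools were above all 3 WT control pools. On quercetin it was at 6.42, 6.61 and 7.28 in WT and at 6.46, 6.89 and 7.38 in POR-null, so these groups overlapped each other and the POR-null controls. Cd3g had a POR-null minus WT difference of 0.62 ± 0.24 (log2, SE) on the control diet, or 1.53-fold, with a 95% interval from 0.11 to 1.12. This difference had an unadjusted p of 0.0204 by limma but did not pass over all probe sets (adjusted p = 0.415), and without WT control replicate 2, its lowest array, it was 0.48 (adjusted p = 0.591). The group means ran from POR-null control at 6.98 through POR-null quercetin at 6.91 and WT quercetin at 6.77 to WT control at 6.37. The pooled SD within groups was 0.36, which exceeded each step in this order except the lowest one, of 0.40.

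Cd3d, the CD3δ chain, was at 6.97, 6.84 and 7.13 in WT control, at 7.13, 7.10 and 7.13 in WT quercetin, at 7.21, 7.28 and 7.07 in POR-null control and at 6.91, 7.25 and 7.31 in POR-null quercetin. Every pair of groups overlapped. Its largest difference between groups was 0.21 ± 0.10 (log2, SE), POR-null over WT on the control diet (limma adjusted p = 0.516).

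Cd3e, the CD3ε chain, was at 7.74, 7.34 and 7.58 in WT control, at 7.35, 7.56 and 7.42 in WT quercetin, at 7.66, 7.43 and 7.39 in POR-null control and at 7.59, 7.45 and 7.66 in POR-null quercetin. Its lowest and its highest array were both in WT control, and 85.3% of its variance lay within groups, beside a median of 69.9% over all probe sets. The group means spanned 0.12, less than the pooled SD of 0.15.

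The genes of the 3 CD3 chains lie together on chromosome 9, with 1.34 kb between Cd3d and Cd3g, which are on opposite strands, and 11.7 kb between Cd3d and Cd3e. The 250 bases before the starts of Cd3g and of Cd3e, which lies 18.3 kb from it, are given from RefSeq (GRCm38.p6). Cd3g was the CD3 gene that varied most between pools. Each window is on the strand of its gene, 5′ to 3′. Capitals mark exact matches, on either strand, to the letters CAGGAA (which ETS factors are known to bind), the letters TGTGGT (known to be bound by RUNX factors), the letters AGATAA (known to be bound by factors of the GATA family), the letters CAGGTG (an E-box of the kind that E proteins bind), the letters AGGTGT (known to be bound by T-box factors) or the letters TGANTCA (known to be bound by AP-1). The Cd3g window is chr9:44980432-44980681 and the Cd3e window chr9:45009612-45009861, both on the minus strand.
Cd3g: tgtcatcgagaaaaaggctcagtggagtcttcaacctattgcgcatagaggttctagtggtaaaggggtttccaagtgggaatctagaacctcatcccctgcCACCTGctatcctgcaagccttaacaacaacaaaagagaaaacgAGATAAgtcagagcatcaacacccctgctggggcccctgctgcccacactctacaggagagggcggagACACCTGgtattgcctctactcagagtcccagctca
Cd3e: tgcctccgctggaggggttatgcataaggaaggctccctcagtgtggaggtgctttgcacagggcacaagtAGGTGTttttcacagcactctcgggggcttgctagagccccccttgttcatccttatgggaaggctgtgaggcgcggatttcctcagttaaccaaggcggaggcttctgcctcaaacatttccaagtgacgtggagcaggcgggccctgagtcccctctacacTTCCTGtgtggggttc
In the Cd3g window a T-box and an E-box match overlap, beginning at -36 and -35 from the start, with another E-box match at -148 and a GATA match at -104. The Cd3e window held a T-box match at -179 and an ETS match at -16. Of 32851 promoter windows of the same length, 17.2% held the E-box letters, 11.8% the T-box, 9.99% the GATA and 25.7% the ETS letters, so such matches are common. They describe the letters alone.

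Cd247, the ζ chain, was dim and flat. Its brightest probe set was at 4.96, 4.85 and 5.0 in WT control, at 4.76, 4.78 and 4.92 in WT quercetin, at 4.85, 4.85 and 4.77 in POR-null control and at 4.95, 4.96 and 4.82 in POR-null quercetin. The highest and lowest of the 12 arrays were 0.24 apart. Of the other 3 probe sets, 2 had all POR-null control pools below all WT control pools, with differences of -0.09 ± 0.06 and -0.15 ± 0.07 (log2, SE; limma adjusted p = 0.649 and 0.479, unadjusted p = 0.18 and 0.0421). The 4 Cd247 probe sets correlated with one another over the 12 arrays at r between 0.27 and 0.62, as a description.

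**Figure D1:**
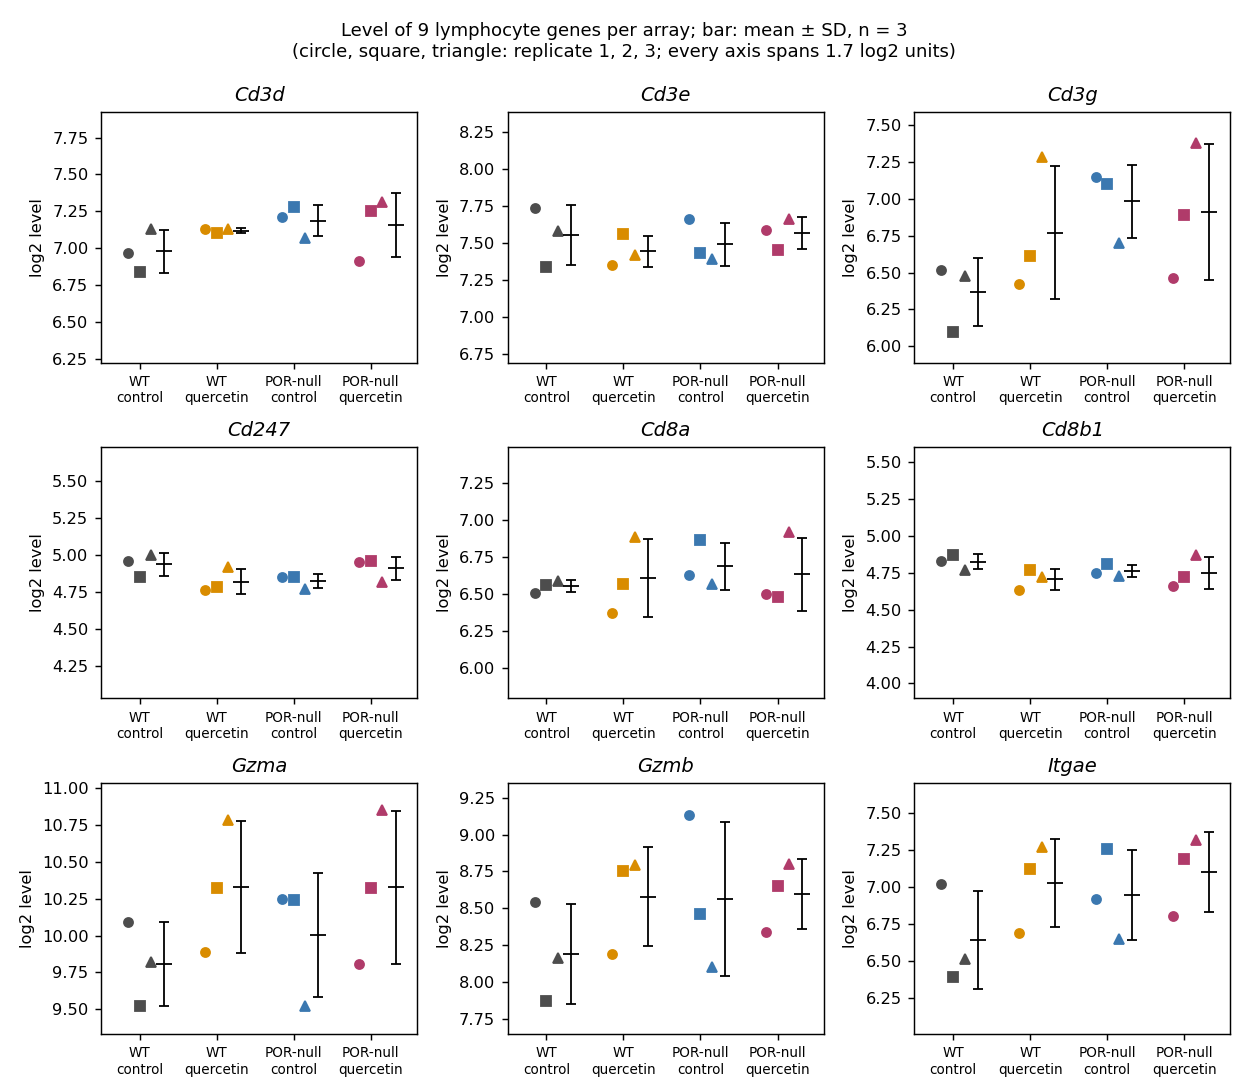
Log2 level (vertical axis; every panel spans 1.7 log2 units) of the representative probe set of each of the 9 genes in the 4 groups. Circles, squares and triangles are the arrays numbered 1, 2 and 3 in each group, each a pool of 3 mice, and the bar beside them is the mean ± SD (n = 3). Gzma, Gzmb, Cd3g and Itgae spread over 0.93 to 1.33 within and across groups, whereas Cd247 and Cd8b1 spread over 0.24.

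Neither coreceptor chain had a difference between groups whose 95% interval left out 0. Cd8a was at 6.51, 6.56 and 6.59 in WT control, at 6.37, 6.57 and 6.89 in WT quercetin, at 6.63, 6.87 and 6.57 in POR-null control and at 6.50, 6.48 and 6.92 in POR-null quercetin. A single pool of each quercetin group, and of POR-null control, stood above the rest of its group. Within groups lay 91.6% of its variance, beside a median of 69.9% over all probe sets. Its second probe set ran from 5.04 to 5.43 and correlated with the first at r = 0.61 over 12 arrays. Its difference on quercetin was 0.06 ± 0.14 in WT, with an interval from -0.24 to 0.35, and -0.06 ± 0.14 in POR-null, from -0.35 to 0.24 (log2, SE).

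Cd8b1, the CD8β chain, was at 4.83, 4.87 and 4.77 in WT control, at 4.63, 4.77 and 4.72 in WT quercetin, at 4.75, 4.81 and 4.73 in POR-null control and at 4.66, 4.72 and 4.87 in POR-null quercetin. Only the highest WT quercetin pool, at 4.77, reached the lowest WT control pool. The WT difference on quercetin was -0.12 ± 0.07 (log2, SE; limma adjusted p = 0.582), with an interval from -0.27 to 0.04. Cd8a and Cd8b1 are neighbours on chromosome 6, 35.9 kb apart.

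The granzymes had the widest spread between pools of the same group. Gzma, the tryptase-like granzyme A, was at 10.09, 9.52 and 9.82 in WT control and at 9.89, 10.32 and 10.78 in WT quercetin. The lowest quercetin pool lay below the highest control pool, so these groups overlapped. It was at 10.25, 10.24 and 9.52 in POR-null control and at 9.81, 10.32 and 10.85 in POR-null quercetin, again overlapping. The difference on quercetin was 0.52 ± 0.27 (log2, SE) in WT, or 1.43-fold, with an interval from -0.07 to 1.11 (limma adjusted p = 0.511), and 0.32 ± 0.27 in POR-null (adjusted p = 0.856). Averaged over both genotypes it was 0.42 ± 0.19, with an unadjusted p of 0.0468 that did not hold over all probe sets (adjusted p = 0.666). Without WT control replicate 2, its lowest array together with POR-null control replicate 3, the WT difference was 0.38 (adjusted p = 0.767). The means on quercetin were both 10.33, POR-null control came next, and WT control was lowest at 9.81. The pooled SD of 0.43 exceeds every step between neighbours in this order.

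Gzmb, the granzyme B that cleaves caspases, was at 8.54, 7.87 and 8.16 in WT control, at 8.19, 8.75 and 8.79 in WT quercetin, at 9.13, 8.46 and 8.10 in POR-null control and at 8.34, 8.65 and 8.80 in POR-null quercetin. The highest array was a POR-null control pool and another pool of that group was among the lowest. Means of the other 3 groups were within 0.03 of each other (8.56 to 8.60), and WT control was at 8.19, below them by no more than 0.41 against a pooled SD of 0.37. The WT difference on quercetin was 0.39 ± 0.24 (log2, SE; limma adjusted p = 0.582). That difference was 0.23 without WT control replicate 2 (adjusted p = 0.843).

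The windows of 250 bases before the starts of Gzma (chr13:113100982-113101231, minus strand) and Gzmb (chr14:56262335-56262584, minus strand; RefSeq, GRCm38.p6) are given because these genes, on different chromosomes, varied together across the pools as described further on. Capitals mark the same motifs as for Cd3g.
Gzma: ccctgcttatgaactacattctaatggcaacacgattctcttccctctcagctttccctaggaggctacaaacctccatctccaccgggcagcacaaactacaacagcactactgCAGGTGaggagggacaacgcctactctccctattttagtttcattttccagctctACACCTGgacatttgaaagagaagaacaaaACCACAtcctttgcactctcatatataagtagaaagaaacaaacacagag
Gzmb: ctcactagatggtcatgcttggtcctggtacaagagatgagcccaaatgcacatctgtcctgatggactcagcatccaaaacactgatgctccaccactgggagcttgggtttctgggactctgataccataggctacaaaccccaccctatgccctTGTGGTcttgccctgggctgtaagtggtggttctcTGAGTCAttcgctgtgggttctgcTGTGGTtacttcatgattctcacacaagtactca
Of the 7 genes with a window, only Gzma (at -50) and Gzmb (at -93 and -34) held the RUNX letters, which 14.0% of all windows hold. Gzma also had E-box matches at -135 and -79, the latter overlapping a T-box match at -80, and Gzmb had an AP-1 match at -58, letters that 6.75% of windows hold. The Cd3g window shares the overlapping T-box and E-box letters with Gzma and lacks the RUNX letters. The Cd3d window also held both, apart from each other, with an E-box match at -112 and a T-box match at -91. A part of these letters in the levels was not tested.

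Itgae was at 7.02, 6.39 and 6.51 in WT control, at 6.69, 7.12 and 7.27 in WT quercetin, at 6.92, 7.26 and 6.65 in POR-null control and at 6.80, 7.19 and 7.32 in POR-null quercetin. Of the WT control pools 2 lay below every other array, and the third was as high as the middle of the other groups. The difference on quercetin was 0.39 ± 0.20 (log2, SE) in WT, with an interval from -0.04 to 0.81 (limma adjusted p = 0.501), and 0.16 ± 0.20 in POR-null (adjusted p = 0.917). Its group means ran from 7.10 in POR-null quercetin through 7.03 and 6.94 to 6.64 in WT control, with a pooled SD of 0.30 that only the lowest step, also 0.30, approached.

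None of the 13 probe sets passed limma's test in any comparison. For quercetin in WT, which asked how these genes responded to the flavonol, 0 of 13 were called, against 0.00442% of all probe sets, and 0 had an unadjusted p under 0.05, against 10.9%. The median difference of the 13 was 0.0033 beside -0.0233 over all probe sets, with 7 higher and 6 lower, of which 4 were the probe sets of Cd247. With 1 probe set per gene, the median was 0.14, with 6 of 9 genes higher and 3 lower, and it was 0.39 over the 7 probe sets above the median level. For quercetin in POR-null, 0 were called against 0% of all probe sets, 0 had an unadjusted p under 0.05 against 6.65%, and the median was 0.03 beside 0.01, with 9 higher and 4 lower (5 and 4 of the 9 genes, with a median of 0.03). These 2 comparisons share no array.

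For POR-null against WT on the control diet, 0 were called against 0% of all probe sets and 2 had an unadjusted p under 0.05 against 10.1%. They were Cd3g, higher in POR-null, and a Cd247 probe set, lower. The median of these 13 was 0.08 beside -0.02, with 7 higher and 6 lower, of which 4 were again the probe sets of Cd247. By gene the median was 0.19, with 6 of 9 higher and 3 lower. Groups did not overlap for 1 of 13 upwards (Cd3g) and 2 of 13 downwards (both Cd247), against 5.15% and 8.71% of all probe sets. On the quercetin diet 0 were called against 0% of all probe sets, and 0 had an unadjusted p under 0.05 against 7.01%. The genotypes overlapped for all 13. Of all probe sets, 7.28% did not overlap upwards and 5% downwards. The median was 0.04 beside 0.01, with 11 higher and 2 lower (8 and 1 of the 9 genes, with a median of 0.04).

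The difference between the quercetin effects of the 2 genotypes was tested as an interaction, and 0 of 13 were called against 0% of all probe sets. The unadjusted p was under 0.05 for 0 of them against 10.3%. Cd3g had the largest value, -0.48 ± 0.33 (log2, SE; limma adjusted p = 0.612), with an interval from -1.19 to 0.24. For the effects averaged over the other factor, 0 were called for quercetin and 0 for genotype, each against 0% of all probe sets. At an unadjusted p under 0.05 there was 1 for quercetin (Gzma) against 7.44% and 1 for genotype (Cd3g, 0.38 ± 0.17, adjusted p = 0.692) against 7.12%. Standard errors of differences between 2 groups ran from 0.064 to 0.27 over the 13 probe sets, so these arrays resolved the granzymes less well than the dim, steady probe sets. A value past neither threshold does not show that a gene was the same in both groups.

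**Figure D2:**
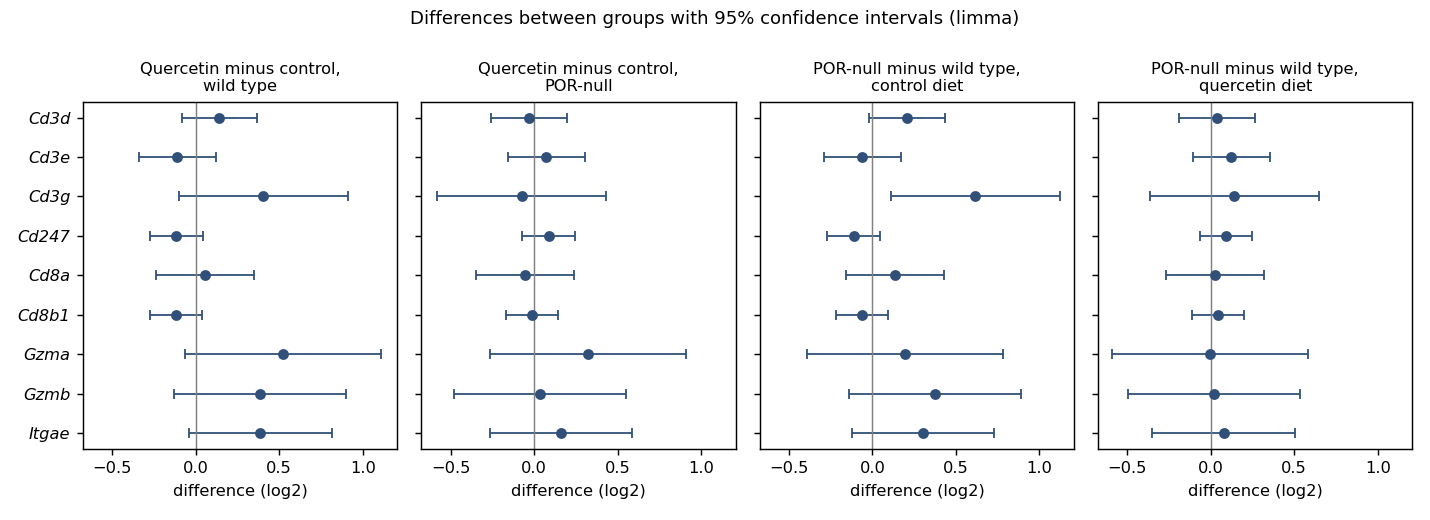
Difference in log2 level (horizontal axis) between groups for the representative probe set of each gene, one panel per comparison; points are limma's estimates and bars their 95% confidence intervals (3 arrays per group). All intervals include 0 except that of Cd3g for POR-null minus WT on the control diet, from 0.11 to 1.12, which did not pass after adjustment.

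As for probe sets in general, most of the variance of these genes lay between pools of one group. The median share within groups was 67.9% for the 13 probe sets and 69.9% for all, with a range over the 13 from 39.6% (a Cd247 probe set) to 91.6% (Cd8a). The range over the 12 arrays was 1.33 for Gzma, or 2.51-fold, 1.28 for Cd3g (2.43-fold), 1.26 for Gzmb (2.39-fold) and 0.93 for Itgae (1.91-fold). These exceeded the ranges of 98.9%, 98.7%, 98.7% and 96.7% of all probe sets, whose median range was 0.38. Cd8a (0.55), Cd3d (0.47) and Cd3e (0.40) were nearer that median, and Cd247 and Cd8b1 (0.24 each) were under it. Pools of one group differ in the mice they hold, and the labels give no measure of lymphocyte number with which to compare them.

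The same pools tended to be high or low for several genes at once. WT control replicate 2 was the lowest array for Cd3d, Cd3e, Cd3g, Gzmb and Itgae, and shared the lowest value of Gzma with POR-null control replicate 3. POR-null quercetin replicate 3 was the highest for Cd3d, Cd3g, Cd8a, Gzma and Itgae. After each gene was centred on its own mean, the mean of the 9 genes ran from -0.31 in WT control replicate 2 to 0.31 in POR-null quercetin replicate 3. By group this mean was -0.15 ± 0.16 in WT control, 0.03 ± 0.21 in WT quercetin, 0.03 ± 0.19 in POR-null control and 0.09 ± 0.22 in POR-null quercetin (SD, n = 3), and the 4 groups overlapped.

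**Figure D3:**
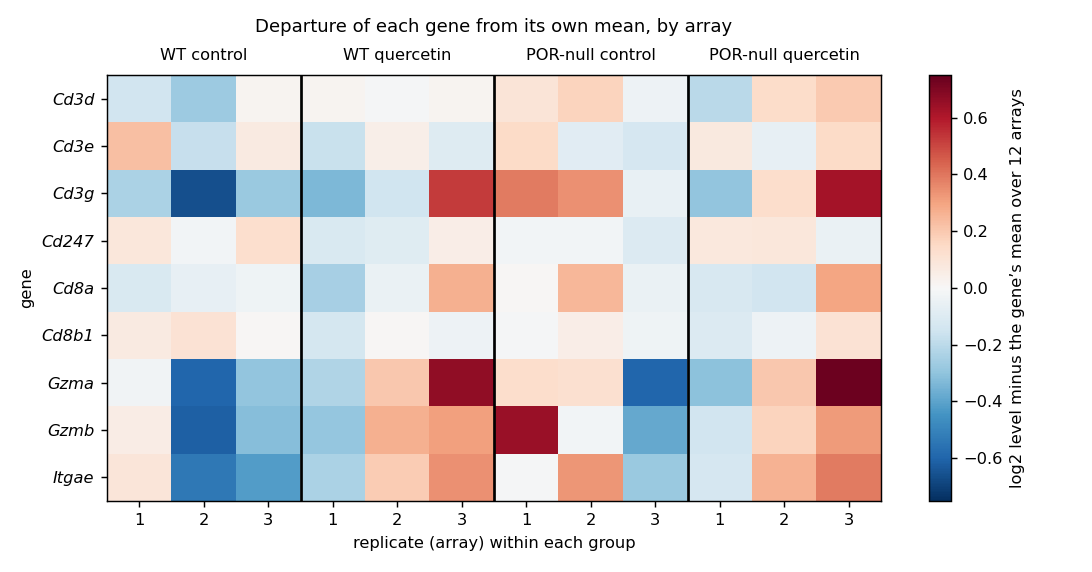
Log2 level of each gene (rows) minus its mean over all 12 arrays, by array (columns, 3 per group); red is above and blue below the gene's mean. POR-null quercetin replicate 3 and WT quercetin replicate 3 are red and WT control replicate 2 is blue for Cd3g, Gzma, Gzmb and Itgae, while Cd247 and Cd8b1 stay pale throughout.

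Of the 36 pairs among the 9 genes, 8 correlated past an adjusted p of 0.05 by Pearson's r and 9 by Spearman's rho over the 12 arrays (permutation tests with 100000 resamples, two-sided, Benjamini-Hochberg over the 36 pairs), and 13 had an unadjusted p under 0.05 by Pearson's r. All 8 were positive. Gzma with Itgae was the closest, at r = 0.896 and rho = 0.902 (permutation p = 0.00012 and 0.00015, adjusted p = 0.00432 and 0.0027). Gzma with Gzmb had r = 0.818 and rho = 0.898 (permutation p = 0.00132 and 0.00013, adjusted p = 0.0147 and 0.0027), and Gzmb with Itgae r = 0.77 and rho = 0.797 (0.00406 and 0.00307, adjusted 0.0183 and 0.0247). Cd3g was in each of the remaining 5, with Gzma (r = 0.837, rho = 0.779), Itgae (0.807, 0.811), Cd3d (0.803, 0.739), Cd8a (0.779, 0.746) and Gzmb (0.773, 0.783), at adjusted permutation p between 0.0147 and 0.0183 by r and between 0.0247 and 0.0331 by rho. With the 2 arrays farthest from the median left out, the 8 had r between 0.56 and 0.91, and as deviations from group means between 0.70 and 0.96. Pairs drawn from other genes were not counted for comparison. The counts therefore do not set the 9 genes apart from genes in general on these arrays.

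The count of pairs rested in part on WT control replicate 2, the array that stood apart. Without it 3 of 36 pairs passed by Pearson's r and 2 by Spearman's rho, over the other 11 arrays. Those by r were Gzma with Itgae (r = 0.872, rho = 0.879), Cd3g with Cd8a (r = 0.851, rho = 0.797) and Cd3g with Gzma (r = 0.793, rho = 0.738), at adjusted permutation p of 0.0162, 0.0196 and 0.0404 by r and 0.0187, 0.0514 and 0.0788 by rho. Gzma with Gzmb passed there by rho = 0.87 (adjusted permutation p = 0.0187) and not by r = 0.769 (adjusted permutation p = 0.0522). Every gene shares its arrays with the others, so anything that sets one pool or array apart enters all pairs.

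Cd3e, Cd8b1 and Cd247 took part in no pair past the threshold. Against the mean of the 8 other genes, r was 0.92 for Gzma, 0.88 for Cd3g, 0.87 for Itgae, 0.82 for Gzmb, 0.70 for Cd3d and 0.67 for Cd8a, and then 0.38 for Cd3e, 0.18 for Cd8b1 and 0.03 for Cd247 (12 arrays, a description). As deviations from group means the 3 stood at 0.54, 0.58 and 0.31, and Cd8b1 with Cd8a at 0.71.

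**Figure D4:**
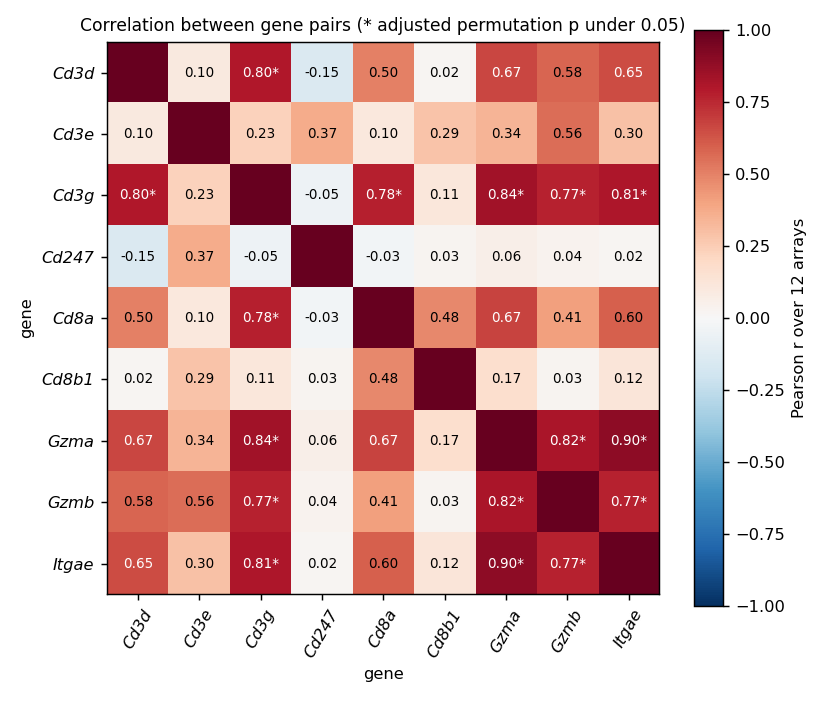
Pearson's r over 12 arrays for each pair of the 9 genes, on a colour scale from -1 to 1; an asterisk marks the 8 pairs with an adjusted permutation p under 0.05. The asterisks join Gzma, Gzmb, Itgae and Cd3g to one another and Cd3g to Cd3d and Cd8a.

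The genes whose pattern was most like the mean of the 9 were sought among 12117 other genes by Pearson's r over the 12 arrays. The 8 highest were Cd7 (0.934), Ccl5 (0.928), Dhx15 (0.891), Fam126a (0.884), Nkg7 (0.884), Cops3 (0.861), Fkbp3 (0.858) and Paip2b (0.857). The median over all genes was -0.05, and 25 genes, or 0.206%, exceeded 0.8. These 8 were picked for their likeness, so the values describe and are no test, and all share the same 12 arrays.

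Cd7, an immunoglobulin-family surface protein of T and NK cells, was at 8.21, 7.83 and 8.03 in WT control, at 8.01, 8.22 and 8.51 in WT quercetin, at 8.36, 8.49 and 7.98 in POR-null control and at 8.06, 8.06 and 8.68 in POR-null quercetin. Ccl5, a chemokine stored and secreted by cytotoxic T cells, ran from 9.22 in WT control replicate 2 to 10.76 in POR-null quercetin replicate 3. Nkg7, a membrane protein of cytotoxic granules, ran from 6.48 in WT control replicate 2 to 7.52 in POR-null control replicate 1, the pool that also had the highest Gzmb. Without WT control replicate 2, r was 0.92 for Cd7, 0.93 for Ccl5 and 0.84 for Nkg7, and the first 2 were still the highest of all genes. Cops3 (0.866), Dhx15 (0.865) and Fam126a (0.851) stood there at ranks 6, 7 and 8, above Nkg7 at rank 10. Paip2b and Fkbp3 stood at 0.80 each, at ranks 24 and 21.

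**Figure D5:**
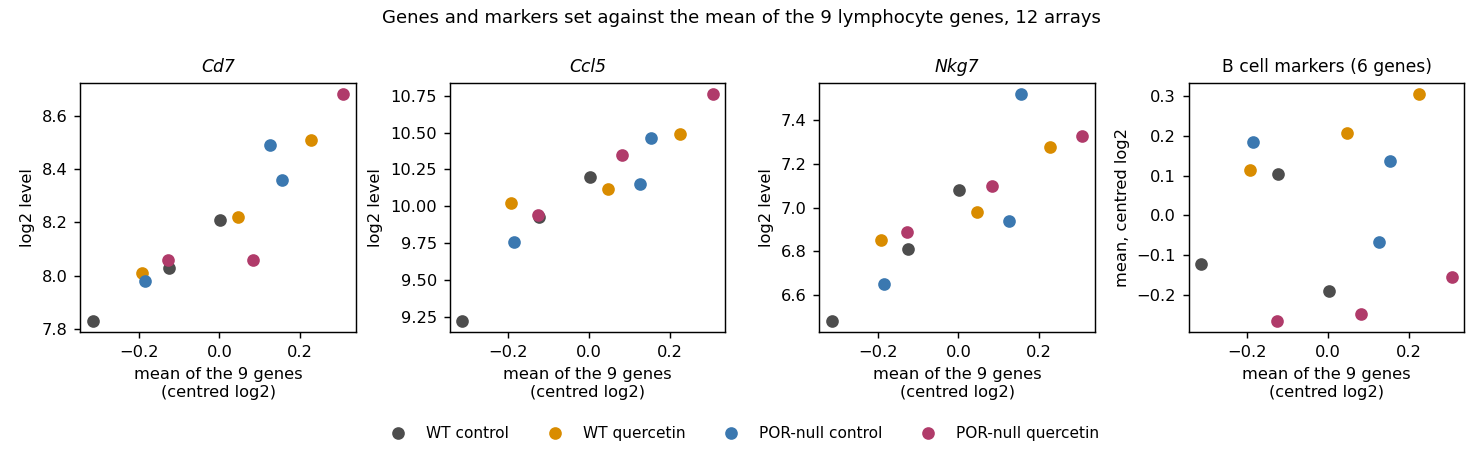
Log2 level of Cd7, Ccl5 and Nkg7, and the mean centred log2 level of 6 B cell markers (vertical axes), against the mean centred log2 level of the 9 lymphocyte genes (horizontal axes); each point is an array, coloured by group. The 3 genes climb with that mean in all groups (r = 0.934, 0.928 and 0.884), and the B cell markers scatter (r = 0.06).

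Other genes of these cells were read from 5 lists, with 0 members called in any comparison, against 0% to 0.00442% of all probe sets. Of 39 listed genes of T cell receptor signalling and coreceptors, 28 were named on the array, and 3, 3, 1 and 4 of them had an unadjusted p under 0.05 for quercetin in WT, quercetin in POR-null, genotype on control and genotype on quercetin. Over all probe sets the shares were 10.9%, 6.65%, 10.1% and 7.01%, and the counts of all 5 lists are to be read against these. Their median differences were 0.06, 0.02, -0.03 and -0.01 (log2). The genes named from each list were picked for the smallest unadjusted p between 2 groups. Ptprc, the leukocyte phosphatase CD45, was at 7.60, 7.67 and 7.92 in WT control and at 7.95, 7.93 and 8.31 in WT quercetin (0.33 ± 0.13 SE, limma adjusted p = 0.374). These groups did not overlap, as for 5.33% of all probe sets in that direction. In POR-null the Ptprc difference on quercetin was 0.01 ± 0.13. The T cell surface receptor gene Cd6 differed by 0.26 ± 0.07 between POR-null and WT on quercetin (adjusted p = 0.499), the phosphatase gene Ptpn22 by 0.31 ± 0.10 between them on control (0.37), and the transcription factor gene Nfatc1 by -0.28 ± 0.09 between them on quercetin (0.545).

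Of 35 genes of cytotoxicity and NK receptors, 32 were named on the array and the same 4 comparisons had 3, 3, 1 and 3 with an unadjusted p under 0.05 (all probe sets, 10.9%, 6.65%, 10.1% and 7.01%), with median differences of -0.02, 0.09, -0.05 and 0.07. The mean of this list, which holds none of the 9 genes, followed their mean over the 12 arrays at r = 0.85, as a description, while the median r of its single genes was 0.16. For the other lists r was 0.39 (T cell receptor signalling), 0.65 (homing), 0.07 (cytokine axis) and 0.40 (MHC class I). Gzmk, granzyme K, was at 5.46, 6.04 and 6.12 in POR-null control and at 6.25, 6.97 and 7.39 in POR-null quercetin. These groups did not overlap, as for 7.45% of all probe sets in that direction. The difference of 1.00 ± 0.37 (log2, SE) did not pass (limma adjusted p = 0.709). In WT, Gzmk was at 6.46, 6.29 and 6.20 on control and at 5.58, 7.26 and 7.17 on quercetin, a group that held values both below and above every control. Srgn, the serglycin core protein that packs granzymes into granules, was at 6.56, 6.52 and 6.73 in WT control and at 6.89, 6.95 and 7.37 in WT quercetin (0.47 ± 0.15, adjusted p = 0.304). Cst7, a cystatin of cytotoxic cells, differed by 0.31 ± 0.11 between POR-null and WT on quercetin (adjusted p = 0.62), and the NK receptor gene Klra7 by -0.17 ± 0.06 on quercetin in WT (0.364).

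Of 31 genes of homing and retention in the epithelium 26 were named on the array, with 3, 3, 2 and 2 at an unadjusted p under 0.05 (all probe sets, 10.9%, 6.65%, 10.1% and 7.01%) and median differences of 0.03, -0.03, 0.04 and 0.01. Ccl25, the small intestinal chemokine that draws CCR9-bearing lymphocytes, differed by 0.21 ± 0.07 on quercetin in WT (limma adjusted p = 0.318), the chemokine receptor genes Cxcr3 by 0.22 ± 0.07 on quercetin in POR-null (0.658) and Cxcr6 by 0.19 ± 0.08 between POR-null and WT on control (0.44), and the junction receptor gene Cxadr by 0.30 ± 0.08 between them on quercetin (0.444). Of 34 cytokine-axis and transcription factor genes 30 were named, with 6, 2, 6 and 3 at an unadjusted p under 0.05 (the same shares apply) and median differences of -0.07, 0.01, -0.03 and 0.03. Il7r, the receptor chain for IL-7 that T cells need to survive, was at 5.24, 5.20 and 5.11 in WT control and at 4.89, 4.86 and 4.85 in POR-null control (-0.32 ± 0.07, adjusted p = 0.265). It was also low in WT quercetin, at 4.87, 4.84 and 5.03, and in POR-null quercetin, at 4.99, 4.86 and 4.89. The genotypes thus overlapped on quercetin. The transcription factor gene Bcl11b differed by 0.44 ± 0.14 and the receptor gene Tgfbr1 by 0.33 ± 0.10 on quercetin in WT (0.301 each), and Tox by 0.23 ± 0.07 between POR-null and WT on control (0.364).

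Of 28 MHC class I and epithelial ligand genes 18 were named, with 1, 0, 1 and 0 at an unadjusted p under 0.05 (all probe sets, 10.9%, 6.65%, 10.1% and 7.01%) and median differences of -0.01, -0.06, -0.02 and -0.02. Il18, an epithelial cytokine that acts on lymphocytes, was at 8.54, 8.66 and 8.98 in WT control and at 7.89, 8.10 and 8.08 in POR-null control (-0.70 ± 0.20, limma adjusted p = 0.334). On quercetin it was at 8.85, 8.17 and 7.76 in WT and at 8.19, 8.02 and 8.06 in POR-null, which overlapped. The class I genes differed less: Mr1 by -0.18 ± 0.08 on quercetin in WT (adjusted p = 0.474) and H2-K1 by -0.15 ± 0.08 on quercetin in POR-null (0.772). The chaperone gene Calr, which helps class I fold, differed by -0.17 ± 0.11 between POR-null and WT on quercetin (0.768).

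Markers of other cells were read beside these genes. Over the 12 arrays the mean of the 9 genes had an r of 0.06 with that of 6 B cell markers, 0.39 with 4 plasma cell markers, -0.08 with 4 NK and innate lymphoid markers, 0.20 with 7 macrophage and dendritic markers, -0.39 with 7 mast cell markers, 0.39 with 8 absorptive epithelium markers, 0.05 with 7 smooth muscle markers and -0.38 with 2 red blood cell markers (descriptions, n = 12). No marker was called, against 0.00442% of all probe sets for quercetin in WT and 0% in every other comparison. All 7 smooth muscle markers had an unadjusted limma p under 0.05 for the averaged genotype effect, against 7.12% of all probe sets. So did 5 of the 6 B cell markers for the interaction, against 10.3%. Cd79b, a B cell marker, came near the threshold for quercetin in WT (0.81 ± 0.13 SE, limma adjusted p = 0.0577). All 7 smooth muscle markers were higher in POR-null than in WT on both diets, with median differences of 0.98 and 0.82. By array their centred mean ran from -1.0 to -0.24 in WT control, -1.01 to 0.47 in WT quercetin, -0.70 to 1.28 in POR-null control and 0.14 to 0.90 in POR-null quercetin. The B cell markers ran from -0.19 to 0.10, 0.11 to 0.31, -0.07 to 0.19 and -0.27 to -0.15 in the same order. The part of either in the differences of the 9 genes between groups was not tested.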

How the data were processed

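The authors deposited log2 expression levels, 1 value per probe set and array, per the labels from Affymetrix 430A arrays; MAS5 and RMA appear in the submitters' processing notes without role or version. Values (2.66 to 14.04) were used as deposited. Of 22690 probe sets, 64 controls were left out; the platform annotation gave 1 symbol to 20380, several to 691 and none to 1555, and 20351 symbols matched the RefSeq gene table (GRCm38.p6, names only) by gene ID. Group means were fitted over all 12 arrays in limma 3.58.1 (R 4.3.3, lmFit and eBayes), with Benjamini-Hochberg adjustment over 22626 probe sets and a threshold of 0.05. Pair correlations used scipy 1.17.1. The limma fit was tested on simulated data. Groups come from the sample titles. All replicates are pools, and the labels do not say whether pools share cages.

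The 9 genes, the lists and the tests were chosen with earlier results of these data known. Named beside the 9 were up to 4 genes per list with the smallest unadjusted p between 2 groups, and the 8 most alike, predicted genes left out. Listed genes without a symbol of their own were not analysed here. Promoter windows were at hand for 7 of the 9 genes. Arrays of the same replicate number were not treated as pairs, and a link between them was not tested. Over 18 same-numbered pairs, deviations from group means correlated over all probe sets at -0.18 to 0.16, with 3 over 0.1. Over the 13 probe sets alone they correlated at -0.73 to 0.88, with 0.81 and 0.88 between the quercetin groups at numbers 1 and 3.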

Additional observations from a re-analysis of the deposited data

How the results depend on the processing

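Alternatives were quantile normalization, median centring, 2 filters on dim probe sets, robust eBayes with a trend, weights per array, a block for the replicate number, a fit to the compared arrays alone, averaging a gene's probe sets, and leaving out each array. Under all 21 settings 0 of the 13 probe sets were called in any comparison. The lowest adjusted p of a gene was 0.208 (limma), and 73 of 1282 uncalled single-gene differences changed sign. That count includes departures from the Cd8a average quercetin effect, which was 0 in the main fit and so had no sign. With probe sets below the median level left out, which keeps 7 of the 13, the median difference for quercetin in WT was 0.39 instead of 0.0033, and the interaction median -0.20 instead of 0.08. With the mean of a gene's probe sets the interaction median was -0.17. Leaving out 1 array gave 3 to 9 correlated pairs instead of 8. With a block for the replicate number, 0 probe sets were called and 16 pairs passed as deviations from group means. Such residuals have fewer free values than arrays, so that count is no stronger evidence. Signal over background could not be read for Cd247 and Cd8b1.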

Other observations

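Probe sets annotated to variable segments of the T cell receptor were read after their values were seen, as a further view of the same cells. There were 12 of them, and 0 were called in any comparison, against 0% to 0.00442% of all probe sets. Their r with the mean of the 9 genes over 12 arrays ran from -0.48 to 0.87. Both ends of this range carry the symbol Trav9d-3, an α chain segment, whose 5 probe sets had r = 0.87, 0.73, 0.29, 0.04 and -0.48. The highest was a Trav9d-3 probe set, which lay between 5.55 and 6.02, and next came a Trgv4 probe set (0.80), of the γ chain, which lay between 4.73 and 5.20. Trbv1, a β chain segment, had r = 0.77 and was at 4.42 ± 0.22 in WT control, 4.87 ± 0.48 in WT quercetin, 4.85 ± 0.05 in POR-null control and 4.92 ± 0.61 in POR-null quercetin (log2, SD, n = 3). Trbv13-2, also of the β chain and brighter, went the other way, with r = -0.40. It was at 6.27 ± 0.08 in WT control, 6.11 ± 0.13 in WT quercetin, 6.01 ± 0.10 in POR-null control and 6.14 ± 0.05 in POR-null quercetin. Variable segments of a family resemble one another, so such a probe set may read several of them.

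Genes with a high r among the lists are given as values over the same 12 arrays, picked for that r. The 18 MHC class I and ligand genes had a median r of 0.24 with the mean of the 9 genes, and their own mean had r = 0.40. Within them B2m, the light chain of MHC class I, had r = 0.77 and the immunoproteasome genes Psmb8 and Psmb10 had r = 0.75 and 0.65. Psmb9, another immunoproteasome gene of this list, had r = 0.47. Proteasome genes outside the lists reached higher, with Psma7 at 0.84 and Psmc2 at 0.83. In the cytotoxic list, whose genes had a median r of 0.16, Hcst, the signalling adaptor DAP10, had r = 0.78, and Ctsw, a protease of cytotoxic lymphocytes, r = 0.74. Without WT control replicate 2, r was 0.70 for B2m, 0.71 for Psmb8, 0.63 for Psmb10, 0.59 for Psmb9, 0.75 for Hcst and 0.62 for Ctsw.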
